A study of Mus musculus with 6 samples.

Results

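Transcription factors of the AP-1 complex and related immediate early genes were measured in single cells from the kidney cortex of mice aged 9 months. The 10 genes were *Fos*, *Fosb*, *Fosl2*, *Jun*, *Junb*, *Jund*, *Egr1*, *Atf3*, *Ier2* and *Klf6*, chosen by symbol from the 26903 genes of the count matrices, and all 10 had a row in each of the 6 libraries. The libraries came from 3 wild type (WT) mice and 3 mice with a global knockout (KO) of *Prdm16*, 1 mouse per library, with no other allele or treatment in the labels, and all 6 mice were labelled male. Cells had been released from minced cortex by warm enzyme digestion and caught in microwells on the BD Rhapsody system, which tags each captured transcript with a unique molecular identifier (UMI). Per library, 10204 to 12359 barcodes lay within the bounds on UMIs and genes, and 3764 to 6677 also had at most 50% mitochondrial UMIs. Of the 30307 cells left by this limit, 28488 remained once doublets had been removed. Counts of a class of cells were summed within a library, because cells of 1 mouse are not replicates. Levels are counts per 1000000 UMIs of the class (CPM), given as mean ± SD over libraries.

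AP-1 is a dimer of a Jun protein with another Jun protein or with a Fos or ATF protein, which binds a short palindromic DNA element. *Fos*, *Jun*, *Egr1*, *Atf3* and *Ier2* are immediate early genes, transcribed within minutes of a growth factor, stress or calcium signal without new protein synthesis, and their transcripts decay quickly. In kidney these genes are known to rise after ischemic and toxic tubular injury, and in many tissues they are also known to rise while cells are being dissociated with warm enzymes. Levels in dissociated cells can therefore hold what was present in the tissue and what arose during preparation, and the counts do not separate them.

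Among the members, *Jun*, *Fos*, *Atf3* and *Klf6* carried the comparisons between KO and WT described below. The 250 bases before their annotated starts are shown, read 5′ to 3′ on the strand of the gene (RefSeq starts, GRCm38.p6), because immediate early promoters respond through short elements. The windows lie at chr4:95052223-95052472, minus strand (*Jun*), chr12:85473640-85473889, plus strand (*Fos*), chr1:191183334-191183583, minus strand (*Atf3*) and chr13:5861239-5861488, plus strand (*Klf6*). Capitals mark TGACATCA in *Jun* and *Klf6* and the letters TGACGT in *Fos* and, on the other strand, in *Atf3*.
Jun: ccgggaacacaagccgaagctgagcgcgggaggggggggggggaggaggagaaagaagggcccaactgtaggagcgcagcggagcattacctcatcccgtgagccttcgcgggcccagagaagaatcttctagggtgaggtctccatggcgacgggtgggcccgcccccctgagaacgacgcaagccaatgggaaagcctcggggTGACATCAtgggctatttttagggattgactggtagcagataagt
Fos: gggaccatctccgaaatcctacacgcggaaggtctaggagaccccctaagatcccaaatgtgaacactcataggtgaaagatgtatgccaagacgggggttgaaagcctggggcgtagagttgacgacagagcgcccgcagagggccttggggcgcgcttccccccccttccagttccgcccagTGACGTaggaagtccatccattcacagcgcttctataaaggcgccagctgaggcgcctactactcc
Atf3: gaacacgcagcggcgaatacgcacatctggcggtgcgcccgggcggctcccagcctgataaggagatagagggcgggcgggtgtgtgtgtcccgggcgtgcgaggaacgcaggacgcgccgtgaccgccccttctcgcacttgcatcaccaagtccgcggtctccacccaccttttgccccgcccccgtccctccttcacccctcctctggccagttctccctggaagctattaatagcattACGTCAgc
Klf6: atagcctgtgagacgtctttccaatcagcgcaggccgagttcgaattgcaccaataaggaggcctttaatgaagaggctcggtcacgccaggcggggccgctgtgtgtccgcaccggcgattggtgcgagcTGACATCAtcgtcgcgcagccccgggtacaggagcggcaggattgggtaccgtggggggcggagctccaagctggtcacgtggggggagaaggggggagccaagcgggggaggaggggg
TGACATCA is a relative of the AP-1 element known from the *Jun* promoter, and TGACGT is the core of the cAMP response element. In *Jun* the first base of TGACATCA stood 45 bases before the start and in *Klf6* 119 bases before it. TGACGT stood 66 bases before the start of *Fos* and 8 bases before that of *Atf3*. On either strand, 2.93% of 32851 promoter windows of the same length held TGACATCA and 6.47% held TGACGT, which also matches inside TGACGTCA. The classical AP-1 element TGAGTCA (4.46% of windows), the full element TGACGTCA (1.55%) and the CArG box (1.47%) were found in 0 of the 8 members' windows, which says only that these letters are absent from 250 bases. GGGCGG, a GC box, was in 6 of the 8 windows, against 32.7% of all windows. The *Atf3* window precedes an internal start, 34706 bases inside the gene as annotated in GENCODE vM21, and no window was given for *Egr1* or *Ier2*. The *Fosl2* window precedes a start 671 bases inside its gene, and the *Jund* window a start 1210 bases before its gene. For *Atf3*, *Fosl2* and *Jund* the motif counts thus concern stretches that do not adjoin the vM21 start of the gene.

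*Fos* spans positions 85473890 to 85477273 of chromosome 12 and *Jun* positions 95049034 to 95052222 of chromosome 4 (GENCODE vM21, GRCm38). *Fosb* lies on chromosome 7 (19302696 to 19310051), *Fosl2* on chromosome 5 (32135801 to 32157842), *Atf3* on chromosome 1 (191170296 to 191218039) and *Klf6* on chromosome 13 (5861482 to 5870394). *Junb* (84974484 to 84978718), *Jund* (70698949 to 70700616) and *Ier2* (84661331 to 84662852) share chromosome 8. *Jun*, *Junb*, *Jund* and *Ier2* have a single exon, the other members 3 or 4. Genes on the opposite strand overlap *Jun* (*Junos*), *Junb* (*Prdx2*) and *Jund* (*Gm11175*), and *Gm24748* overlaps *Atf3*. Whether counting used the strand was not given in the sources used here, so reads of these pairs may not have been told apart.

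Retained cells carried 23107708 to 35366031 UMIs per library. Counts of *Xist*, made by the inactive X chromosome of female cells, reached 297 CPM in 1 WT library (replicate 2) and 306 CPM in 1 KO library (replicate 1) but no more than 0.22 CPM in the other 4, although all mice were labelled male, so the calls of members are also given without these 2 libraries, and those of other genes as a count. *Prdm16*, the targeted gene, stood at 32.4, 26.7 and 27.1 CPM for the WT mice against 21.0, 24.9 and 23.4 CPM for the KO mice. The knockout removed an early exon and shifted the reading frame, and counts per gene also take tags from the exons that remain, so these levels do not check the labels. Pairs of libraries shared between 0 and 2 cell barcodes. Clusters were named from marker genes only, and the names mean only resemblance. Tubule classes resembled the loop of Henle (LOH), its descending limb (DLH), the distal convoluted tubule (DCT) and the connecting tubule (CNT), and collecting duct classes resembled principal cells (PC) and intercalated cells (IC), with DCT/CNT and CNT/PC between neighbours. The rest were podocyte-like, endothelial-like, macrophage-like, T and NK-like, and stromal and mesangial-like. Of these, 13 classes had at least 10 cells in every library. Proximal convoluted tubule-like cells, the main tubule of the cortex, numbered 358 in all and 9 in 1 library, and were not tested. How many such cells the mitochondrial limit removed was not counted.

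*Fos* was detected in every class and was highest in podocyte-like cells, the filtering epithelium of the glomerulus, at 5540.2 ± 1498 CPM (SD, n = 6), followed by DCT at 3461 ± 1023 and CNT/PC at 3371 ± 750.2. T and NK-like cells had the lowest *Fos*, 1207 ± 332 CPM, so that the class means spanned 4.59-fold. Each class overlapped the next in the order of *Fos* levels. *Fosb*, which encodes a second Fos protein, was also highest in podocyte-like cells, 2727 ± 802 CPM, then in DLH, 2256 ± 1400.4, and was lowest in DCT/CNT, 271 ± 190.3. *Fosl2*, encoding the Fos-related protein Fra-2, had the steepest order. It stood at 1026 ± 319 CPM in T and NK-like cells, with every library there (674 to 1595 CPM) above every DLH library (105 to 278), the next class. DLH itself was at 172 ± 74.6 CPM and PC at 152 ± 26.2. In CNT *Fosl2* was at 9.06 ± 3.27 CPM, 113-fold below T and NK-like cells. DCT, with 14.2 ± 4.67 CPM, lay below macrophage-like cells, with 34.3 ± 14.2, without overlap.

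The Jun genes divided differently. *Jun*, which encodes the partner that most AP-1 dimers contain, followed *Fos* at both ends of its order, with 3204 ± 929 CPM in podocyte-like cells, 2281 ± 415 in macrophage-like cells and 868 ± 194 in T and NK-like cells. *Junb*, whose protein often limits the activity of Jun, was instead highest in T and NK-like cells at 2463 ± 308 CPM. Every T and NK-like library (2147 to 2833 CPM) lay above every podocyte-like library (447 to 1067), where *Junb* was second highest. *Jund*, the Jun gene usually expressed in resting cells, varied least, 3.44-fold between T and NK-like cells (1682 ± 362 CPM) and DCT/CNT (489 ± 101).

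*Egr1*, a zinc finger factor induced through serum response factor, and *Atf3*, a stress-induced partner of Jun proteins, were highest in macrophage-like cells. *Egr1* reached 3200.0 ± 878 CPM there against 2333 ± 806 in DLH and 475 ± 132 in CNT. *Atf3* reached 1475 ± 291 CPM in macrophage-like cells, 1354 ± 733 in DLH and 1052 ± 312 in IC, while CNT had 154 ± 47.1. *Klf6*, a zinc finger factor induced by injury, stood at 1609 ± 410.4 CPM in macrophage-like cells and 1555 ± 348 in IC, and was lowest in endothelial-like cells at 251 ± 31.8. *Ier2*, a nuclear protein gene of the immediate early group, ran from 234 ± 72.7 CPM in T and NK-like cells to 48.1 ± 9.22 in CNT. Over all 10 genes only the neighbours named above for *Fosl2* (2 of 12 pairs) and *Junb* (1 of 12) were separated, and for the other 8 genes all 12 neighbouring pairs of classes overlapped.

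**Figure D1:**
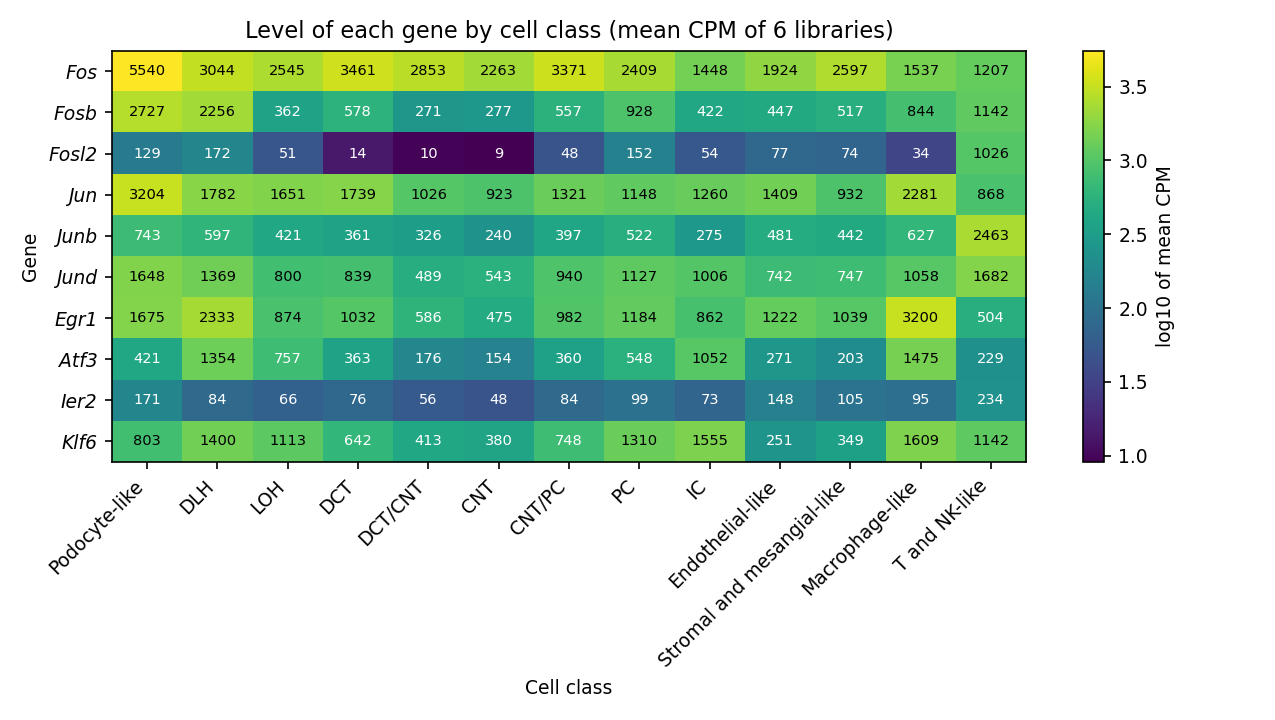
Mean level of each gene (rows) in each cell class (columns) over 6 libraries, in CPM, with colour on a log10 scale. *Fosl2* and *Junb* stand out in T and NK-like cells, 1026 and 2463 CPM, and *Fos* in podocyte-like cells, 5540 CPM.

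The sum of the 10 genes was 17062 ± 4703 CPM in podocyte-like cells and 14389 ± 4614 in DLH, and lowest in CNT, 5312 ± 716. The median mitochondrial share of a cell, which CPM includes, ran from 39.7% to 43.7% over libraries in LOH against 10.9% to 13.9% in podocyte-like cells and 7.0% to 10.7% in macrophage-like cells. With mitochondrial UMIs left out, 8 of the 10 genes kept their leading class. *Atf3* was then highest in DLH (1679.5 CPM) and *Klf6* in IC (2434 CPM), and the span fell to 78.3-fold for *Fosl2*, 6.75-fold for *Fosb* (from 10.1) and 2.28-fold for *Jund*. The lowest class became CNT for *Fosb*, T and NK-like cells for *Egr1* and stromal and mesangial-like cells for *Atf3*.

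The genes were also present in barcodes of 10 to 100 UMIs, which were taken to hold free RNA rather than cells. Mitochondrial UMIs made up 50.9% to 62.3% of them per library, against a median of 19.1% to 29.4% in retained cells. Whether they also held remains of broken cells was not tested. There *Fos* averaged 1394 CPM against 2772 in retained cells, *Atf3* 285 against 618 and *Fosl2* 65.7 against 77.2. With mitochondrial UMIs left out of both, the ratio of cells to these barcodes ran from 0.784 for *Fosl2* to 1.45 for *Atf3*. Cells lay above the barcodes in all 6 libraries for *Fos*, *Jund*, *Egr1*, *Atf3* and *Ier2*, in 5 for *Klf6*, 4 for *Fosb* and *Jun*, 2 for *Junb* and 0 for *Fosl2*. Mean *Fosl2* levels in CNT (9.06 CPM), DCT/CNT (9.65), DCT (14.2), macrophage-like cells (34.3), CNT/PC (47.9), LOH (50.8) and IC (53.7) were below its lowest level in these barcodes (55.2 CPM), which bears on the *Fosl2* comparisons in CNT/PC, LOH and DCT below, and how much free RNA contributed to each class was not measured.

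Libraries of 1 genotype differed in the whole group of genes at once. On the log2 CPM scale, averaged over the 10 genes, WT replicate 1 lay below the WT mean in 13 of 13 classes (median −0.29, range −0.58 to −0.05) and KO replicate 1 below the KO mean in 13 of 13 (median −0.20, range −0.57 to −0.001). Of 130 pairs of gene and class, WT replicate 1 was the lowest WT library in 94 and KO replicate 1 the lowest KO library in 82. In podocyte-like cells the summed level was 11132 CPM in WT replicate 1 against 21745 in WT replicate 3, and 12827 in KO replicate 1 against 22978 in KO replicate 3. There the median SD of the 10 genes within a genotype was 0.51 on the log2 scale against 0.18 over all genes tested, and it exceeded the median of all genes in 8 of 13 classes. The spread between mice of 1 genotype was thus large for these genes, and it sets the error of the comparisons that follow.

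**Figure D2:**
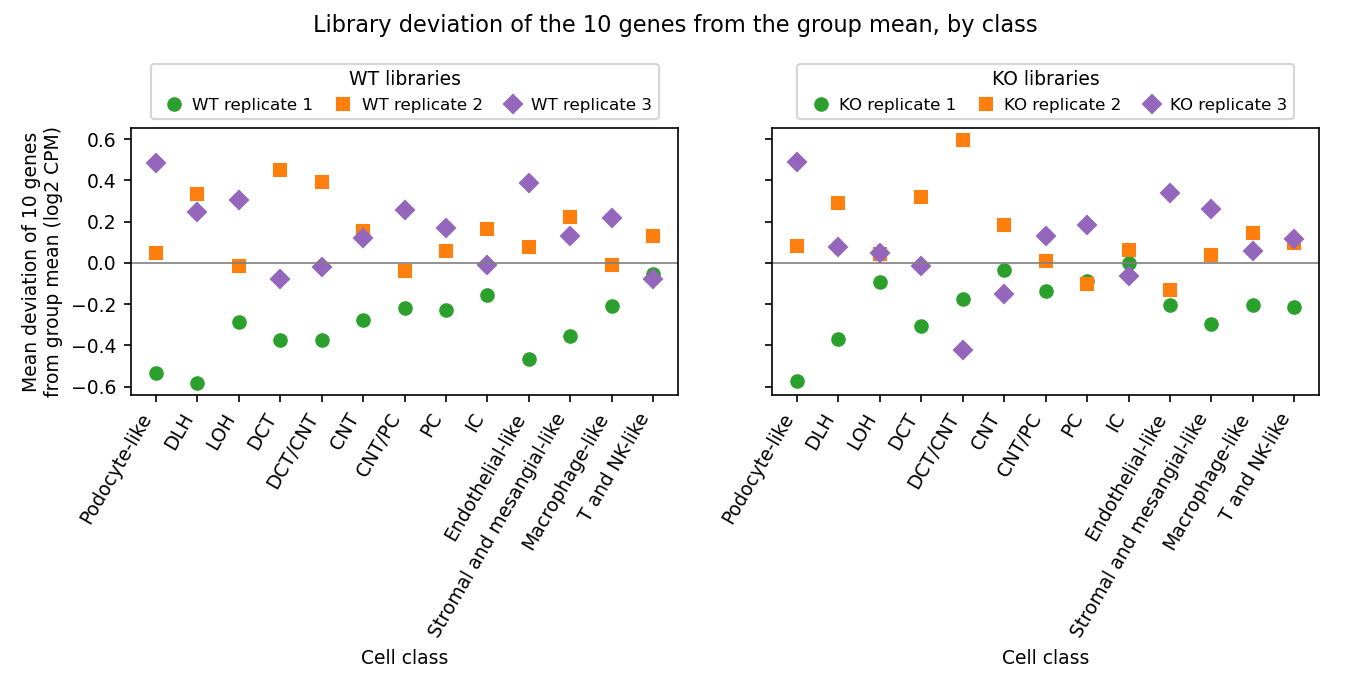
Mean deviation of the 10 genes from the mean of the library's own group (log2 CPM, vertical axis) in each cell class (horizontal axis), for WT (left) and KO (right) libraries. Replicate 1 of either group lies below 0 in 13 of 13 classes, down to −0.58 in WT and −0.57 in KO.

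To ask whether loss of *Prdm16* changed these genes, KO was compared with WT in each class with the quasi-likelihood test of edgeR, and p-values were adjusted over all genes of the class. Of 127 tests of a member in a class, 1 passed an adjusted p of 0.05, *Jun* in PC, which was higher in KO. DESeq2 called 5 members higher, namely *Jun* and *Fos* in PC, *Fos* and *Atf3* in LOH and *Jun* in IC, which were 5 of 128 member tests (3.91%) against 1.1% of all genes tested by DESeq2. Members called lower numbered 0 in edgeR and 0 in DESeq2, and at an unadjusted p under 0.05 edgeR had 10 members higher and 9 lower, 19 of 127 member tests against 11.7% of those of all genes. The remaining 3 of 130 pairs, *Fosl2* in CNT and DCT/CNT and *Ier2* in DLH, were under the count filter. Among all genes the share called was 4.14% in LOH, 2.81% in CNT/PC, 2.19% in PC, 2.1% in podocyte-like cells, 1.32% in DCT, 1.12% in CNT and 0.629% in IC. Macrophage-like cells had 0.435%, DCT/CNT 0.262%, endothelial-like cells 0.194%, the stromal and mesangial class 0.0516%, T and NK-like cells 0.0253% and DLH 0%. Summed over the classes, 1 of 127 member tests (0.787%) stood against 1.49% of 98963 tests of all genes. Libraries of KO and WT did not overlap in 18 of 127 tests (14.2%), 10 with KO higher and 8 with KO lower, against 16.3% over all genes. The share of members thus lay below that of all genes for edgeR calls and separated groups, and above it for DESeq2 calls and unadjusted p-values. Calls of members were few, 1 in edgeR and 5 in DESeq2, and the classes came from the same mice. Whether members differed from all genes in any of these shares was not tested. In the sum over all retained cells, 0 of 10 members passed in edgeR, where 1.07% of genes did, and the largest change was that of *Atf3* (log2 fold change 0.51, adjusted p 0.358).

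**Figure D3:**
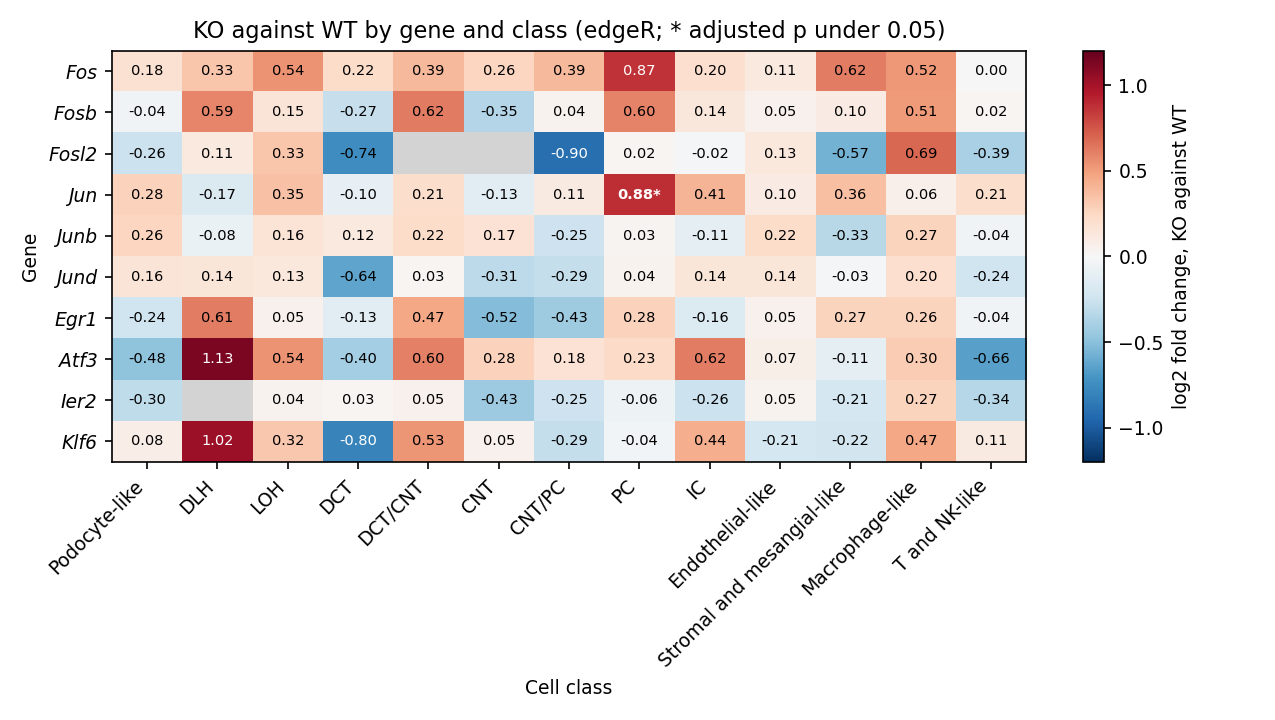
Log2 fold change of KO against WT for each gene (rows) and cell class (columns) from edgeR, red where KO was higher and blue where it was lower, with grey for pairs under the count filter. The asterisk marks the 1 pair with an adjusted p under 0.05, *Jun* in PC at 0.88.

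In PC, the water-reabsorbing cells of the collecting duct, *Jun* was at 761, 976 and 728 CPM across the WT mice (replicates 1 to 3), in that order here and below, against 1537, 1219 and 1663 CPM across the KO mice. Every KO library lay above every WT library, and *Jun* rose in KO (log2 fold change 0.88, SE 0.16, adjusted p 0.0110). *Fos*, its usual partner, was at 1437, 1897 and 1868 CPM across the WT mice against 3091, 2213 and 3951 CPM across the KO mice. The groups did not overlap here either, but KO replicates differed from one another by up to 1.79-fold and the gene missed the threshold (log2 fold change 0.87, SE 0.21, adjusted p 0.0547). *Fosb* was at 643, 875 and 740.1 CPM across the WT mice against 671, 1099.9 and 1539.9 CPM across the KO mice, with KO replicate 1 inside the WT range (log2 fold change 0.60, SE 0.25, adjusted p 0.331). The other 7 members had log2 fold changes between −0.06 (*Ier2*) and 0.28 (*Egr1*) in PC, and the median of all 10 was 0.13 against 0.01 over all genes tested.

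*Jun* in PC passed the threshold under 16 of 19 alternative settings, with adjusted p between 1.8e-07 and 0.157. It did not when classes were built from marker scores of single cells (log2 fold change 0.47, adjusted p 0.157), when the members themselves were used in clustering (0.42, adjusted p 0.123) or without WT replicate 3 (0.83, adjusted p 0.0562). Without the 2 libraries that carried *Xist* it was 1.00 (adjusted p 0.0330). KO libraries held fewer PC cells (133, 107 and 174 against 302, 254 and 266 in WT), with a median mitochondrial share of 27.4%, 28.4% and 29.2% against 23.6%, 23.0% and 27.6%. The summed level of 14 heat shock genes, which respond to stress of proteins, reached 9618, 6883 and 9245 CPM for KO against 6046, 7762 and 7617 CPM for WT. The part of cell number, mitochondrial share and heat shock genes in the *Jun* result was not tested.

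**Figure D4:**
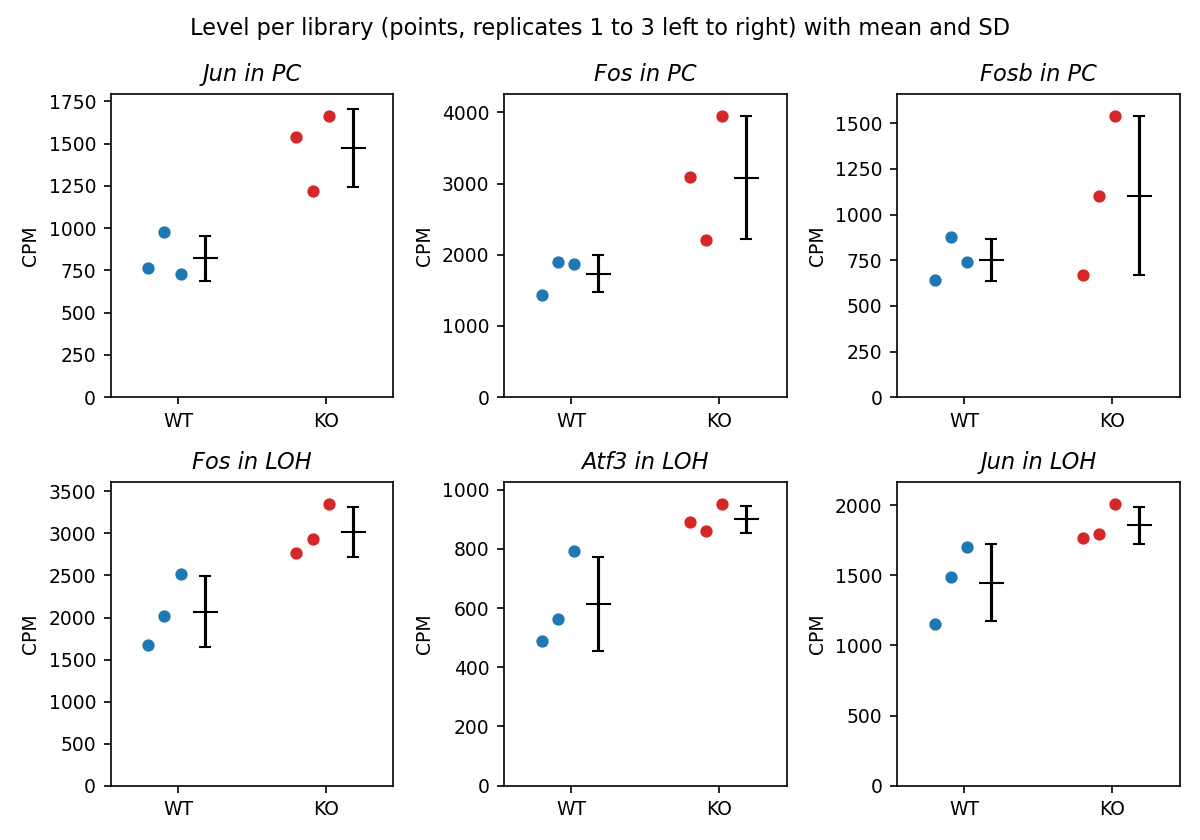
Level in CPM (vertical axis) per library for 3 genes in PC (top) and 3 in LOH (bottom), with WT in blue and KO in red and the mean ± SD of 3 libraries beside the points. KO libraries lie above all WT libraries in each panel except *Fosb* in PC, where KO replicate 1 (671 CPM) is below WT replicates 2 and 3.

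The LOH class, named for the salt-reabsorbing loop, had all 10 members above 0 in KO against WT, with a median log2 fold change of 0.24 against −0.01 over all genes, though 0 of 10 passed the adjusted threshold in edgeR and 3 had an unadjusted p under 0.05. *Fos* was at 1673, 2019 and 2522 CPM across the WT mice against 2771, 2939.9 and 3345 CPM across the KO mice, without overlap (log2 fold change 0.54, SE 0.14, adjusted p 0.0533). *Atf3* was at 489, 562 and 794 CPM across the WT mice against 889, 859 and 950.0 CPM across the KO mice, also without overlap (log2 fold change 0.54, SE 0.15, adjusted p 0.0712). *Jun* was at 1152, 1488 and 1702 CPM across the WT mice against 1763, 1796 and 2004 CPM across the KO mice (log2 fold change 0.35, SE 0.13, adjusted p 0.182). In all 3 genes WT replicate 3 came closest to the KO libraries. *Fos* passed in 8 of 19 alternatives (adjusted p 7.53e-08 to 0.206) and *Atf3* in 5 of 19 (5.67e-07 to 0.682), both in DESeq2 and without WT replicate 3, where their log2 fold changes were 0.72 and 0.79. In the largest LOH cluster, of 1699 cells, *Fos* stood at 1874, 2302 and 2709 CPM for WT against 3136, 3285 and 3555 CPM for KO, without overlap. In the other 2 LOH clusters the groups overlapped, with 2127 CPM in the lowest KO library against 2135 in the highest WT library in 1 of them and 2211 against 2478 in the other. The 14 heat shock genes in LOH summed to 4801, 4634 and 4166 CPM for WT against 6907, 5239 and 7362 CPM for KO. Their part in the levels of *Fos*, *Atf3* and *Jun* was not tested.

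In IC, which secrete acid or base, 3 of 10 members were higher in each KO library than in any WT library, as were 5.82% of all genes tested there. *Jun* was at 1129.5, 1162 and 996 CPM across the WT mice against 1411, 1464 and 1396 CPM across the KO mice (log2 fold change 0.41, SE 0.11, adjusted p 0.171). *Atf3* was at 609.9, 917 and 987 CPM across the WT mice against 1534, 1245 and 1020.4 CPM across the KO mice (log2 fold change 0.62, SE 0.19, adjusted p 0.215), and *Klf6* had a log2 fold change of 0.44 (adjusted p 0.433). The largest IC cluster held 33.5% and 26.6% of the class in KO replicates 1 and 2 but 46.9% to 57.2% in the other libraries, and the median depth of IC cells was 10930.0 and 12545 UMIs in those 2 libraries but 2220 to 4004 in the others. Within single IC clusters each of the 3 genes was separated in some and overlapped in others. In the largest, of 1259 cells, the lowest KO against the highest WT library was 951 against 1197 CPM for *Jun*. For *Atf3* it was 799 against 720 there and for *Klf6* 996 against 871. In a cluster of 585 cells it was 1409 against 1335 for *Jun*, 1313 against 1354 for *Atf3* and 2248 against 2292 for *Klf6*. The part of cluster mix and depth in these values was not tested. Stromal and mesangial-like cells had *Fos* at 1317, 2297 and 2599 CPM across the WT mice against 2761, 2941 and 3666 CPM across the KO mice, without overlap (log2 fold change 0.62, SE 0.25, adjusted p 0.587). The largest fold change of any member was that of *Atf3* in DLH (log2 fold change 1.13, SE 0.61, adjusted p 1), a class of 15 to 26 cells per library in which WT ranged from 226 to 1339 CPM.

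In CNT/PC 6 of 10 members were below 0 in KO against WT and 5 had all KO libraries below all WT libraries, as had 8.84% of all genes tested there, with a median log2 fold change of −0.25 against 0.002 over all genes. *Fosl2* was at 42.2, 57.0 and 87.7 CPM across the WT mice against 31.1, 34.2 and 35.4 CPM across the KO mice (log2 fold change −0.90, SE 0.25, adjusted p 0.0715). It passed in 3 of 17 alternatives, among them without WT replicate 1 (−1.13, adjusted p 0.0108), and was at −0.54 (adjusted p 0.208) without WT replicate 3 and −0.49 (adjusted p 0.730) at a mitochondrial limit of 30%. *Egr1* was at 1116, 1019.5 and 1245 CPM across the WT mice against 807, 825 and 879.7 CPM across the KO mice (log2 fold change −0.43, SE 0.15, adjusted p 0.219). *Junb*, *Jund* and *Ier2* had log2 fold changes of −0.25, −0.29 and −0.25 there, without overlap and with adjusted p of 0.573, 0.517 and 0.545. *Fos* in the same cells had a log2 fold change of 0.39 (adjusted p 0.497). The median depth of CNT/PC cells was 5625, 5646 and 5088.5 UMIs for KO against 3057, 3629 and 3178 for WT, and the smaller of the clusters in this class held 31.2%, 26.8% and 39.4% of it for KO against 34.8%, 43.6% and 43.7% for WT. The part of depth and cluster mix in the CNT/PC values was not tested.

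DCT, the segment after LOH, had 7 of 10 members below 0. *Klf6* was at 515, 1121 and 816 CPM across the WT mice against 352, 613 and 433 CPM across the KO mice, with overlap (log2 fold change −0.80, SE 0.22, adjusted p 0.112). *Jund* was at 638, 1539 and 893 CPM across the WT mice against 644, 825 and 496 CPM across the KO mice, with overlap (log2 fold change −0.64, SE 0.23, adjusted p 0.279). *Fosl2* did not overlap, with a mean of 10.8 ± 2.31 CPM for KO against 17.6 ± 3.87 for WT (SD, n = 3, log2 fold change −0.74, SE 0.26, adjusted p 0.261). Its counts in DCT were low, from 13 to 79 UMIs per library. Without WT replicate 1, *Klf6* (−1.05, adjusted p 0.00747) and *Jund* (−0.88, adjusted p 0.0364) passed. Without the *Xist* libraries it was *Fos* that passed in DCT, in the opposite direction (0.73, adjusted p 0.00163), against 0.22 with all libraries (adjusted p 0.830). The libraries left out were the highest WT library (4223 CPM) and the lowest KO library (2208 CPM) for *Fos* there. In CNT, *Egr1* was at 406, 665 and 620.4 CPM across the WT mice against 419, 388 and 352 CPM across the KO mice, with KO replicate 1 above WT replicate 1 (log2 fold change −0.52, SE 0.16, adjusted p 0.153), and *Jund* and *Ier2* lay lower in all KO libraries (−0.31 and −0.43, adjusted p 0.462 and 0.494).

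Podocyte-like cells, with the highest summed level, had 5 members above and 5 below 0 (median 0.02), and *Fos* at 3544, 5536 and 6421 CPM across the WT mice against 4462, 5438 and 7840.2 CPM across the KO mice (log2 fold change 0.18, SE 0.25, adjusted p 0.753). Endothelial-like cells had 9 of 10 members above 0 but none beyond 0.22 in size, and *Fos* ran from 1092 to 2432 CPM over WT mice against 1378 to 2833 CPM over KO mice. Macrophage-like cells had 10 of 10 above 0 (median 0.29, range 0.06 to 0.69), and DCT/CNT 9 of 9 tested (median 0.39), both without a member at an unadjusted p under 0.05 and with every pair overlapping. Without the *Xist* libraries *Fos* (0.99, adjusted p 0.00254) and *Atf3* (1.29, adjusted p 0.0245) passed in DCT/CNT. That left 2 libraries per group, with 26 and 17 cells in those of KO. The WT library left out was the highest WT library for both genes (3593 and 220 CPM). The KO library left out was the lowest KO library for *Fos* (2123 CPM). In T and NK-like cells, where *Fosl2* and *Junb* were highest, *Fosl2* was at 816, 1122 and 1595 CPM across the WT mice against 674, 941 and 1008 CPM across the KO mice (log2 fold change −0.39, SE 0.26, adjusted p 0.985) and *Junb* at 2229, 2784 and 2581 CPM across the WT mice against 2204, 2147 and 2833 CPM across the KO mice (log2 fold change −0.04, SE 0.23, adjusted p 0.994).

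The KO effect was also compared between LOH and DCT, neighbouring segments, in edgeR by a term for genotype by segment, each mouse being its own block. It differed for 3 of 10 members, while 1.23% of 10930 genes did. For *Klf6* the log2 ratio of the LOH level to the DCT level of the same mouse was 0.13, −0.19 and 0.79 in the WT libraries and 1.78, 0.98 and 1.58 in the KO libraries. KO mice held relatively more *Klf6* in LOH, in each KO library above each WT library (difference of effects 1.19, SE 0.20, adjusted p 0.00276). In LOH *Klf6* was at 565, 981 and 1412 CPM across the WT mice against 1209, 1208 and 1301 CPM across the KO mice, an overlap that the ratio within a mouse did not show. For *Atf3* the ratio was 0.76, −0.08 and 1.13 in the WT libraries and 1.64, 1.22 and 1.75 in the KO libraries (difference of effects 0.92, SE 0.21, adjusted p 0.0285), and for *Fosl2* 0.89, 1.32 and 1.61 in the WT libraries and 2.49, 2.27 and 2.14 in the KO libraries (difference of effects 1.06, SE 0.26, adjusted p 0.0460). *Jund* did not pass (difference of effects 0.70, SE 0.19, adjusted p 0.0926) but its ratios did not overlap either. *Fos* (0.38, adjusted p 0.499) and *Jun* (0.43, adjusted p 0.326) did not pass.

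The difference for *Klf6* kept its call in 13 of 15 alternatives. With the 2 *Xist* libraries left out, 1 of each group, 0 of 10 members passed, and *Klf6* was at 0.80 (adjusted p 0.124), *Atf3* at 0.52 (adjusted p 0.347) and *Fosl2* at 0.96 (adjusted p 0.498), with 2 libraries per group. At a mitochondrial limit of 30% *Klf6* was at 1.59 (adjusted p 0.258). *Atf3* lost its call when replicate 1 or 2 of WT, or replicate 1 or 3 of KO, was left out (adjusted p 0.0886 to 0.156), with a difference of 0.57 without WT replicate 2 and 0.84 to 0.99 without the others. It passed in 8 of 15 alternatives and *Fosl2* in 5 of 15. *Fosl2* lost its call without any single library but WT replicate 3 (adjusted p 0.0633 to 0.266), and it rested on only 13 to 79 UMIs per library in DCT. Between LOH and endothelial-like cells the KO effect differed for 0 of 10 members in edgeR and 1 at an unadjusted p under 0.05, *Klf6* (0.59, adjusted p 0.331), with 0.743% of 11980 genes called.

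**Figure D5:**
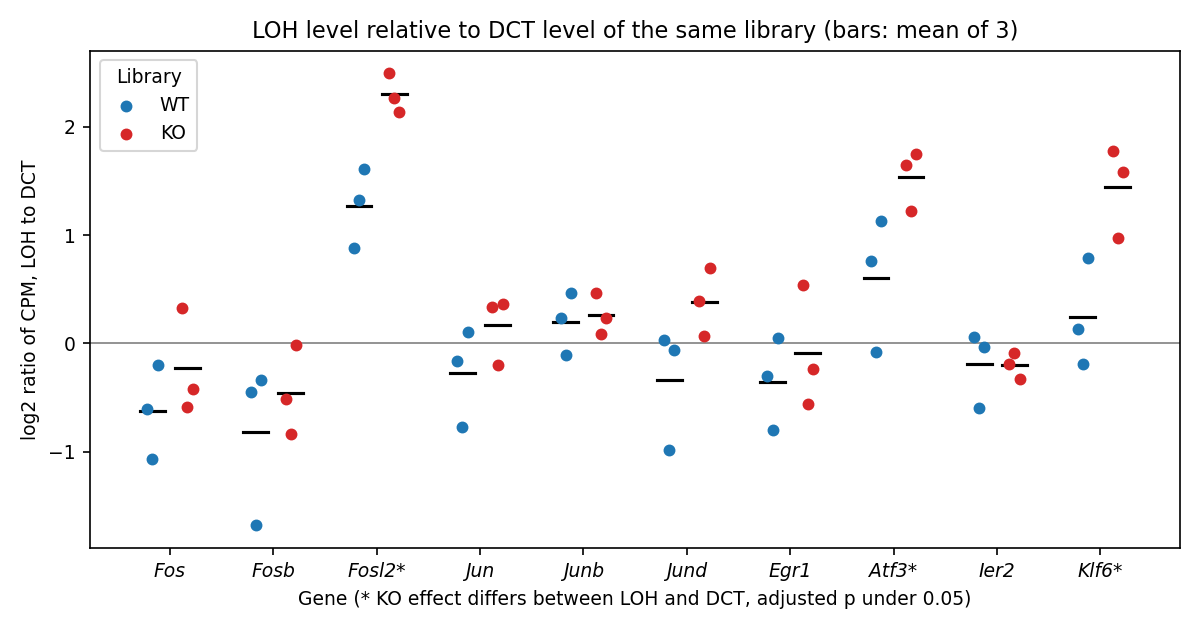
Log2 ratio of the LOH level to the DCT level of the same library (vertical axis) for each gene (horizontal axis), WT in blue and KO in red, with bars at the mean of 3 libraries. All KO points lie above all WT points for *Klf6*, *Atf3*, *Fosl2* and *Jund*, with mean ratios of 0.24 in WT and 1.45 in KO for *Klf6*.

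Within classes the members moved together across libraries. Over 78 sums of class and library, each gene centred on the mean of its class, the correlation with the mean of the other members was 0.771 for *Fosb*, 0.714 for *Atf3*, 0.672 for *Egr1*, 0.661 for *Jun* and 0.631 for *Fos*, and lowest for *Ier2* (0.355) and *Fosl2* (0.265). Points of 1 library share its handling and depth, so these values are descriptions. Among 8678 other genes, the 10 most like the mean of the members were *Ccnl1* (r = 0.773), *Tnfaip3* (0.759), *Dnaja1* (0.738), *Tiparp* (0.712), *Csrnp1* (0.711), *Zfp36l1* (0.702), *Hspa8* (0.701), *Bhlhe40* (0.699), *Dnajb4* (0.693) and *Bag3* (0.685). Of these, *Dnaja1*, *Hspa8*, *Dnajb4* and *Bag3* encode chaperones of the heat shock response, and *Csrnp1*, *Zfp36l1* and *Bhlhe40* are immediate early genes. Cells of a class with a higher mitochondrial share held less of most members in 8 of 11 classes. A high share is often taken as a sign of stressed or leaking cells. Comparing the highest with the lowest bin of that share used in a class, without mitochondrial UMIs, levels were lower in 9 of 11 classes for *Fosb* and *Jund*, in 8 for *Fos*, in 7 for *Jun*, *Junb*, *Egr1*, *Atf3*, *Ier2* and *Klf6* and in 6 for *Fosl2*. The bins differed by class. DCT, endothelial-like cells, IC, LOH and podocyte-like cells had 0 to 10% against 40 to 50%. CNT/PC and PC had 10 to 20% and CNT 30 to 40%, each against 40 to 50%. Stromal and mesangial-like cells had 10 to 20% against 30 to 40% and macrophage-like cells 0 to 10% against 20 to 30%. T and NK-like cells had only 0 to 10% against 10 to 20%. In IC all 10 members were higher in the highest bin (*Fos* log2 ratio 1.51, *Atf3* 1.74), in T and NK-like cells 9 of 10 and in LOH 8 of 10 (*Fos* 0.36, *Atf3* 0.37). The lowest IC bin held only 63 cells, and 4 libraries had at least 10 there. From the 10 to 20% bin to the 40 to 50% bin of IC, *Atf3* fell from 2488 to 1361 CPM and *Klf6* from 4335 to 2054. *Fosb*, *Fosl2*, *Junb*, *Jund*, *Egr1* and *Ier2* were lower too, while *Fos* (2485 to 2781) and *Jun* (2438 to 2473) were higher.

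Genes around the members were compared from lists of related factors. Of 20 other AP-1 and ATF family genes, tested 165 times over the classes, 2 tests were higher and 2 lower (2.42%). Of the tests of all genes over the classes, 1.49% were called. Whether any list differed from all genes was not tested. *Maf*, a bZIP factor, was at 90.8, 80.3 and 85.9 CPM across the WT mice against 37.1, 44.0 and 34.6 CPM across the KO mice in PC and fell (log2 fold change −1.13, SE 0.16, adjusted p 0.00310), and in podocyte-like cells it rose from 1.96 to 4.33 CPM in WT to 5.84 to 11.2 CPM in KO (log2 fold change 1.60, SE 0.36, adjusted p 0.0491). In CNT/PC *Maff*, a small Maf protein gene, fell (−1.22, adjusted p 0.0241). Kinases and factors that act on these promoters, 27 genes in 254 tests, gave 0 higher and 1 lower (0.394%, against 1.49% over all genes). It was *Map2k7*, a kinase above Jun N-terminal kinase, in podocyte-like cells (−0.54, adjusted p 0.0448).

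Other immediate early genes, 48 of them in 524 tests, gave 11 higher and 14 lower (4.77%, against 1.49% over all genes). *Sik1*, a kinase gene induced by cAMP, fell in 4 classes, and in CNT it was at 61.5, 75.7 and 53.5 CPM across the WT mice against 23.9, 21.2 and 22.7 CPM across the KO mice (log2 fold change −1.45, SE 0.22, adjusted p 0.000456). Its log2 fold changes in CNT/PC, DCT and LOH were −1.06, −0.85 and −0.62 (adjusted p 0.00135, 0.0285 and 0.0417). In LOH, where *Fos* and *Atf3* pointed up, the orphan nuclear receptor *Nr4a1*, chosen for naming after its values were seen, was at 238, 264 and 258 CPM across the WT mice against 103, 115 and 110.1 CPM across the KO mice and fell (log2 fold change −1.21, SE 0.09, adjusted p 3.2e-05). *Socs3*, a brake on cytokine signals, rose in LOH (0.67, adjusted p 0.00695) and PC (1.97, adjusted p 0.00619), *Nfkbiz* in LOH and IC (0.63 and 0.80) and *Klf2* in CNT/PC and PC (1.15 and 2.52). *Cebpb* and *Plk2* rose in LOH (0.58 and 0.82), while *Cebpb* fell in CNT/PC (−0.97) and *Plk2* in PC (−1.59). Immediate early genes thus did not share 1 direction within LOH, where 5 rose and 3 fell of 44 tested. Among all genes in LOH 4.14% were called. In CNT/PC 1 rose and 7 fell of 44 tested, where 2.81% of all genes were called.

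Of 18 genes often tied to AP-1 as targets, in 109 tests, 2 were higher and 6 lower (7.34%, against 1.49% over all genes). Of 9 tested in PC, 0 were higher and 3 lower, where 2.19% of all genes were called. In PC, the class in which *Jun* rose, *Ccnd1*, which drives entry into the cell cycle, was at 1086, 983 and 604 CPM across the WT mice against 294, 366 and 527 CPM across the KO mice and fell (log2 fold change −1.11, SE 0.23, adjusted p 0.0266). *Spp1*, encoding osteopontin, and *Vegfa* fell there as well (−1.82 and −0.88, adjusted p 0.00605 and 0.00742). *Vegfa* also fell in CNT/PC (−0.67), *Gdf15* in DCT (−1.49) and *Lif* in podocyte-like cells (−1.44), while *Spp1* rose in DCT (0.57) and *Hbegf*, an epidermal growth factor receptor ligand, in LOH (0.63, adjusted p 0.0466). Heat shock genes, 14 in 181 tests, gave 4 higher and 1 lower (2.76%, against 1.49% over all genes). *Hsph1*, *Dnaja1*, *Hspa8* and *Dnajb1* rose in LOH (0.70, 0.53, 0.43 and 0.63), and *Dnajb4* fell in CNT/PC (−0.76). Of 43 calls of genes in these lists, 19 passed and all 43 kept their sign without the *Xist* libraries, an alternative chosen after seeing the data. Among the named genes *Maf* in PC (−1.15, adjusted p 0.0270), *Sik1* in CNT (−1.31, adjusted p 0.0174) and *Nr4a1* in LOH (−1.13, adjusted p 0.000367) passed, and *Maff* (−1.05, adjusted p 0.204), *Ccnd1* (−0.85, adjusted p 0.197) and *Hbegf* (0.65, adjusted p 0.151) did not. *Sik1* also passed in CNT/PC but not in DCT (−0.51, adjusted p 0.369) or LOH (−0.36, adjusted p 0.252). *Socs3*, *Klf2*, *Spp1* and *Gdf15* passed in each class named, as did *Hsph1* and *Dnaja1* in LOH and *Plk2* in PC. *Cebpb*, *Nfkbiz* and *Vegfa* passed in neither class named. *Plk2*, *Hspa8* and *Dnajb1* in LOH, *Dnajb4* in CNT/PC and *Maf*, *Map2k7* and *Lif* in podocyte-like cells did not pass.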

How the data were processed

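The values the authors deposited were UMI counts, not normalised, for each gene in each barcode, from the BD Rhapsody pipeline run on mm10 with GENCODE vM23. Barcodes with 500 to 60000 UMIs, 200 to 8000 genes and at most 50% mitochondrial UMIs were kept, and the 6% of cells per library with the highest Scrublet scores were removed as doublets. Counts were scaled to 10000 per cell, log-transformed and clustered in scanpy 1.11.5 (1955 of 2000 variable genes, without the members, the genes of the other lists and mitochondrial genes, 30 principal components, 15 neighbours, Leiden resolution 1) into 34 clusters, of which 4 stayed unnamed. Stress or immune genes led some named clusters, namely *Lif* in PC, *Gdf15* in CNT/PC and *Ccl4*, *Ccl3* and *Tnf* in macrophage-like cells. Sums per class and library were tested with edgeR 4.0.16 in R 4.3.3 (TMM, glmQLFit and glmQLFTest after filterByExpr at min.count 10, two-sided, Benjamini-Hochberg over the genes of a class). The test was checked on simulated data. DESeq2 1.42.0 was an alternative. Replicates were separate mice by their titles. Members and gene lists were chosen with earlier results of these data known. All members were reported in every class, of the other lists up to 6 genes called in most classes, and the 10 genes most like the members. For 1 gene of the other lists the result is not reported here. The labels do not pair WT with KO mice by replicate number. Same-numbered libraries correlated at 0.2, −0.06 and 0.28 and differently numbered ones at −0.4 to 0.24. These values overlap and cannot decide whether libraries of the same number shared their handling. Coordinates are from GENCODE vM21 and promoter windows from RefSeq, both on GRCm38. Intervals of counting error were not computed, and the tests took their error from the spread between libraries.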

Additional observations from a re-analysis of the deposited data

Results flagged for a closer look

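The KO effect differed between LOH and DCT for 3 members in edgeR, by a term for genotype by segment fitted within mice. The difference of log2 fold changes was 1.19 for *Klf6*, 1.06 for *Fosl2* and 0.92 for *Atf3*, each with all 3 KO libraries above all 3 WT libraries in the ratio of LOH to DCT. With the 2 libraries that carry *Xist* left out, these differences were 0.80, 0.96 and 0.52 and none passed an adjusted p of 0.05 in edgeR.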

How the results depend on the processing

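Counts of called members depended on the setting. Against 1 member higher in KO, DESeq2 gave 5, no low-count filter 10, a block for libraries with *Xist* 4, the other 4 libraries alone 4, equal cell numbers 2 and a mitochondrial limit of 30% 2, and leaving out 1 library gave 1 to 3, with 2 without KO replicate 2 and 3 without WT replicate 3. Against 0 lower, no low-count filter gave 6 and leaving out 1 library 0 to 5, with 5 without WT replicate 1 (*Egr1* in CNT, *Fosl2* in CNT/PC, *Jund* and *Klf6* in DCT and *Fosl2* in neutrophil-like cells). The replicate block, used although the labels do not pair the mice, gave 4 higher and 3 lower. Against 3 members whose effect differed between LOH and DCT, marker-score classes gave 1, a mitochondrial limit of 30% 0, the 4 libraries without *Xist* 0 (an alternative chosen after seeing the data) and leaving out 1 library 1 to 4, with 1 where replicate 1 or 2 of WT was left out, or replicate 1 or 3 of KO. Between LOH and endothelial-like cells the count was 0 under all 15 alternatives. RLE factors, leaving out mitochondrial genes, at least 1000 UMIs per cell and keeping doublets left the counts of higher and lower members at 1 and 0. Marker-score classes and members kept in clustering gave the same counts for another member, since *Jun* in PC lost its call and *Fos* in LOH gained one (0.58 and 0.56, adjusted p 0.0406 and 0.0417). None of the alternatives reversed a direction among the results listed here. The causes of these changes were not tested. Depth limited *Fosl2* and *Ier2*, which failed the count filter in 3 pairs of gene and class.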
